A study of Mus musculus with 6 samples.

Results

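The proteins that build and hold the hyaluronan network of cartilage were followed through 10 genes: the lecticans Acan and Vcan, the link proteins Hapln1, Hapln3 and Hapln4, the hyaluronan synthases Has1, Has2 and Has3, the receptor Cd44 and the hyaluronidase Hyal2. They were chosen by name from 19938 genes with a probe set of 1 gene, each by its only such probe set, and 9 of the 10 were bright enough to enter the test of 17020 genes. RNA came from hindlimb growth plate chondrocytes of mice at postnatal day 30, with 3 control and 3 conditional Lkb1 mutant samples, each on its own Affymetrix array. All mice had a background labelled as mixed FVB, 129S6 and C57CL/6. The labels name neither the promoter behind the conditional deletion, nor its timing, nor the genotype of the controls. The labels call the replicates biological without saying that they came from separate animals, so every p-value measures the spread between these samples.

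Aggrecan, the product of Acan, is the large chondroitin sulphate proteoglycan that gives cartilage its swelling pressure. Many aggrecan molecules bind along 1 hyaluronan chain, and link protein, the product of Hapln1, locks each of them in place. Hyaluronan itself is made at the cell membrane by the synthases Has1, Has2 and Has3 from 2 sugar nucleotides, is held at the cell surface by CD44 and is cut by hyaluronidases such as the membrane-anchored HYAL2. Versican, the product of Vcan, is the lectican of mesenchyme, blood vessels and fibrous tissue, and is low in mature cartilage.

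Levels are given as log2(intensity + 1) of the values the authors deposited. Array medians lay between 82.4 and 90.5 on the linear scale. Signal without expression was gauged from 1035 probe sets of olfactory receptor genes, whose 95% point, called the background point below, lay between 6.40 and 6.73 on the log2 scale. Stk11, the current name of Lkb1, was at 8.68, 9.08 and 9.67 in the controls and at 7.39, 7.51 and 7.52 in the mutants, always in the order of replicates 1, 2 and 3. Where its probes lie relative to the deleted part was not analysed here. All 11 chondrocyte markers examined exceeded the background point on every array, and their mean lay between 11.26 and 11.51. Passing that point does not by itself bear out the chondrocyte label, since 10189 of the 17020 genes tested passed it in all controls. Transcripts of bone marrow cells stood apart: a list of 25 markers of red cells, neutrophils and B cells averaged 8.33, 9.03 and 9.76 in the controls and between 5.70 and 5.99 in the mutants. Of these 25 markers, 22 exceeded the background point in all controls and 3 in all mutants, and 17 exceeded it in no mutant, among them Slc4a1, Alas2, Mpo, Elane and Cd79a. Stk11 had the same order among the controls as the marrow mean, and the part of marrow RNA in its difference between the groups was not tested. In RNA from a whole tissue sample, fewer cells of a type and less RNA per cell cannot be told apart.

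No difference was detectable in the core genes of the cartilage aggregate, while versican and both expressed hyaluronan synthases were higher in the mutants. Vcan rose 2.63-fold, Has1 1.95-fold and Has2 1.61-fold, whereas Acan, Hapln1 and Cd44 lay within 0.07 of their control means on the log2 scale. Of the 9 genes tested, 3 rose and 0 fell at a limma adjusted p of 0.05, beside 7.84% of all genes tested that were called higher and 6.82% called lower, or 14.7% in either direction. The median difference of the 9 was 0.28, beside 0.03 over all genes tested. The groups did not overlap for 4 of the 9, Hyal2 being the other, beside 36.7% of all genes tested.

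**Figure D1:**
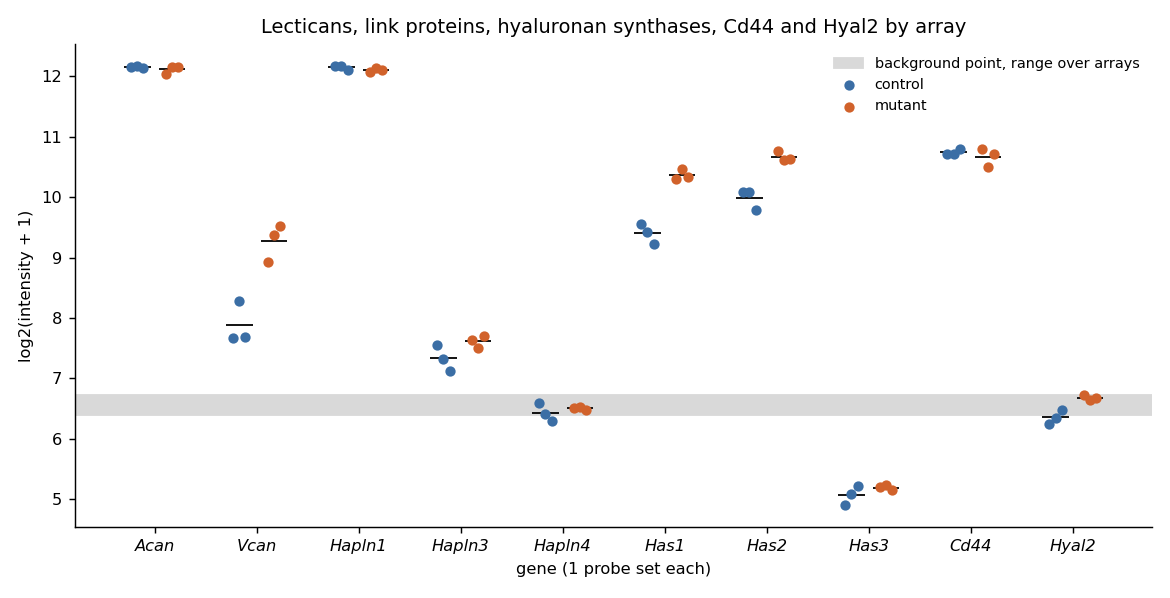
Level of each gene on every array as log2(intensity + 1), with 3 control arrays in blue and 3 mutant arrays in orange; black lines are group means and the grey band spans the background points of the 6 arrays. Vcan, Has1 and Has2 separate the groups well above the band, Acan and Hapln1 sit between 12.04 and 12.17 in both groups, Hapln4 and Hyal2 lie at the band and Has3 below it.

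The sequences before the start sites of Has1 and Vcan, which rose, and of Acan and Hapln1, which did not pass the test, are shown so that genes on both sides of the test can be compared. Each is the 250 bases before the start given by RefSeq, build GRCm38.p6, read 5′ to 3′ along the gene's strand, and 7 of the 10 genes had an entry; Has2, Has3 and Hapln4 did not. Capitals mark a cyclic AMP response element.
Has1 chr17:17855189-17855438 (- strand): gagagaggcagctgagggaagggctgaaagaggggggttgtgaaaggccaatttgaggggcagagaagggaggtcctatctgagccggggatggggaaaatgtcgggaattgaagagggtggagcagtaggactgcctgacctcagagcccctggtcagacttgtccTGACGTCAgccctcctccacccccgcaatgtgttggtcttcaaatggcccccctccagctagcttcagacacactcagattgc
Vcan chr13:89742513-89742762 (- strand): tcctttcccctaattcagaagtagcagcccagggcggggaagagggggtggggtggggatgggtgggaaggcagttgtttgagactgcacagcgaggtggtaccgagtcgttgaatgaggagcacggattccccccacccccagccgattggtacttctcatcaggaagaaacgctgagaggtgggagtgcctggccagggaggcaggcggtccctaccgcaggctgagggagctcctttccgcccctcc
Acan chr7:79052976-79053225 (+ strand): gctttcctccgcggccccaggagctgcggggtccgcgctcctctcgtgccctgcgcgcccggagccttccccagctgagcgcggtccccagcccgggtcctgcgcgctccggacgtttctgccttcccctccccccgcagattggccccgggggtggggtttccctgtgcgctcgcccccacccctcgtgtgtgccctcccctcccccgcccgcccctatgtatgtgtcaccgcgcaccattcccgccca
Hapln1 chr13:89540386-89540635 (+ strand): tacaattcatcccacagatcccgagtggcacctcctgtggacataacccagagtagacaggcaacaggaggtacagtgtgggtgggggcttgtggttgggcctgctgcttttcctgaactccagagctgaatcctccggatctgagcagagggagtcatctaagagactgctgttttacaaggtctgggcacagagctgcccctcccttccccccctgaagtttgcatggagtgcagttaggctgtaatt
The motifs searched on both strands were the cyclic AMP response element TGACGTCA, its shorter form TGACGT, which lies inside it, the AP-1 site TGANTCA, the TCF/LEF site ATCAAAG and the TATA box TATAAA. The full cyclic AMP response element occurred in the Has1 window, from base -83 to base -76 counted from the start site, and in no other window of the 7; it occurred in 1.55% of 32544 windows of this length. TGACGT occurred in 6.50%, TGANTCA in 6.73%, ATCAAAG in 3.21% and TATAAA in 12.3% of all windows. Among the 7, TGACGT had no match beyond the Has1 element, and TATAAA matched in Hapln3 alone, from base -239 to base -234. Base composition differed too: G and C made up 74.4% of the Acan window, with 26 CpG dinucleotides, and 54.4% of the Hapln1 window, with 2, beside medians of 52.4% and 6 over all windows. The Vcan window had 62.4% and 10 CpG, and the Has1 window had 4 CpG. A match to these letters is a description of the sequence and does not show that a factor binds there.

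Of the 2 lecticans Acan and Vcan, Vcan passed the test. Acan was at 12.15, 12.17 and 12.13 in the controls and at 12.04, 12.16 and 12.16 in the mutants. The groups overlapped, and the difference was -0.03 (SE 0.08, n = 3 per group, limma adjusted p = 0.862). Its 95% interval ran from -0.22 to 0.17, which is 0.858-fold to 1.12-fold. Acan is one of the brightest signals on these arrays, with 0.208% to 0.349% of probe sets brighter. Whether deposited intensities still rise in proportion to RNA at that level was not tested.

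Vcan was at 7.67, 8.28 and 7.69 in the controls and at 8.92, 9.38 and 9.52 in the mutants. Control replicate 2 was the highest control, every mutant lay above it, and all 6 arrays exceeded the background point. Vcan thus rose from 7.88 ± 0.35 to 9.27 ± 0.32 (SD, n = 3 each), a difference of 1.39 (SE 0.21, limma adjusted p = 0.00613). Its 95% interval ran from 1.86-fold to 3.70-fold. Leaving out any 1 array gave differences of 1.27 to 1.59 with adjusted p of up to 0.0318. Leaving out control replicates 2 and 3, the arrays with most marrow signal, gave 1.61, a value with no test because 1 control remains. With the marrow marker mean as a covariate the difference was 1.27, and the call ended (adjusted p = 0.414). That mean separates the groups completely, so this fit rests on the trends within groups of 3 arrays.

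The brain lecticans Bcan and Ncan are not cartilage genes and served as a comparison. Bcan was between 6.72 and 6.81 in the controls and between 6.70 and 6.94 in the mutants, a difference of 0.05 (adjusted p = 0.768). Ncan was between 6.59 and 6.89 in the controls and between 6.66 and 6.78 in the mutants, a difference of -0.06 (adjusted p = 0.765), and the sign turned without control replicate 2 (0.0033), as that of Bcan did without mutant replicate 1 (-0.01). Both lay just above the background point on all arrays. Of the 4 lecticans of the mouse, Vcan was thus the one that passed the test.

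Hapln1, the cartilage link protein, was at 12.17, 12.17 and 12.11 in the controls and at 12.07, 12.14 and 12.11 in the mutants. The groups overlapped in part, with 2 controls above every mutant, and the difference was -0.04 (SE 0.08, limma adjusted p = 0.771). Its 95% interval, 0.853-fold to 1.11-fold, is as narrow as that of Acan. Like Acan it stood near the top of the scale, with 0.208% to 0.318% of probe sets brighter.

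Hapln3, a link protein of blood vessel walls and other connective tissues, was at 7.55, 7.33 and 7.12 in the controls and at 7.64, 7.50 and 7.70 in the mutants. The highest control lay above the lowest mutant, and the difference of 0.28 (95% interval -0.01 to 0.58) did not pass the test (adjusted p = 0.183). Its controls ran opposite to the marrow mean, and the difference was -0.70 once the marrow mean entered as a covariate and 0.07 when only control replicate 1 was kept. Hapln4, a link protein of the nervous system, was between 6.30 and 6.60 in the controls and between 6.48 and 6.53 in the mutants, above the background point on 1 array of each group (difference 0.07, adjusted p = 0.678). Hapln2, the remaining link protein gene and also one of the nervous system, exceeded the background point on no array.

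Each link protein gene of the mouse lies next to a lectican gene, with 0 genes listed between the 2 in the RefSeq table of GRCm38.p6. The pairs are Acan with Hapln3, Vcan with Hapln1, Bcan with Hapln2 and Ncan with Hapln4. Set side by side by pair, Acan and Hapln3 differed by -0.03 and 0.28, Vcan and Hapln1 by 1.39 and -0.04, Bcan and Hapln2 by 0.05 and -0.19, and Ncan and Hapln4 by -0.06 and 0.07. The 95% intervals of Vcan (0.90 to 1.89) and of its neighbour Hapln1 (-0.23 to 0.14) did not overlap. The difference between neighbours was not tested.

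Of the synthases, Has1 and Has2 were clearly measured. Has1 was at 9.56, 9.43 and 9.22 in the controls and at 10.30, 10.46 and 10.34 in the mutants. Every mutant exceeded every control, with less spread among the mutants. Has1 rose from 9.41 ± 0.17 to 10.37 ± 0.08 (SD, n = 3 each), a difference of 0.96 (SE 0.11, limma adjusted p = 0.00211) with a 95% interval of 1.63-fold to 2.33-fold. Leaving out any 1 array gave 0.87 to 1.04 with adjusted p of up to 0.0154. With only control replicate 1 kept the difference was 0.80. The Has1 controls ran opposite to the marrow mean. Once that mean entered as a covariate the difference was 0.27 with a wider SE of 0.32 (adjusted p = 0.671), which ends the call.

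Has2, the synthase that limb cartilage development depends on, was at 10.09, 10.08 and 9.78 in the controls and at 10.77, 10.61 and 10.63 in the mutants. Control replicate 3 was the lowest array, and every mutant exceeded every control. Has2 rose from 9.99 ± 0.18 to 10.67 ± 0.08 (SD, n = 3 each), a difference of 0.69 (SE 0.11, limma adjusted p = 0.00857) with a 95% interval of 1.34-fold to 1.93-fold. The highest adjusted p with 1 array left out was 0.0429, without mutant replicate 1. Keeping only control replicate 1 gave 0.58. Its controls also ran opposite to the marrow mean, and adding that mean as a covariate gave 0.027 (SE 0.35, adjusted p = 0.974), which ends the call. Has3 was between 4.91 and 5.23 on all arrays, below the background point on each, so no statement on its level can be made. It did not enter the test, and its difference with no filter was 0.12 (adjusted p = 0.544).

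Cd44, the main cell surface receptor for hyaluronan, was at 10.71, 10.72 and 10.80 in the controls and at 10.79, 10.50 and 10.72 in the mutants. Mutant replicate 2 was the lowest array, and the groups overlapped. The difference was -0.07 (SE 0.10, limma adjusted p = 0.704) with a 95% interval of 0.808-fold to 1.12-fold. It was 0.015 without mutant replicate 2. Cd44 is also carried by blood cells and macrophages. The marrow marker mean was 8.33 to 9.76 in the controls and 5.70 to 5.99 in the mutants. The macrophage mean was 7.43 to 7.66 in the controls and 8.12 to 8.55 in the mutants. The part of these cells in the Cd44 result was not tested.

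Hyal2, which starts the breakdown of large hyaluronan at the cell surface, was at 6.24, 6.35 and 6.48 in the controls and at 6.73, 6.64 and 6.67 in the mutants. The groups did not overlap, but no control and 2 mutants exceeded the background point. The difference of 0.32 (SE 0.09) missed the threshold (limma adjusted p = 0.0616), and its size is limited by the background. It passed without control replicate 3 (0.38, adjusted p = 0.0303) and with a filter at the median (adjusted p = 0.0449).

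**Figure D2:**
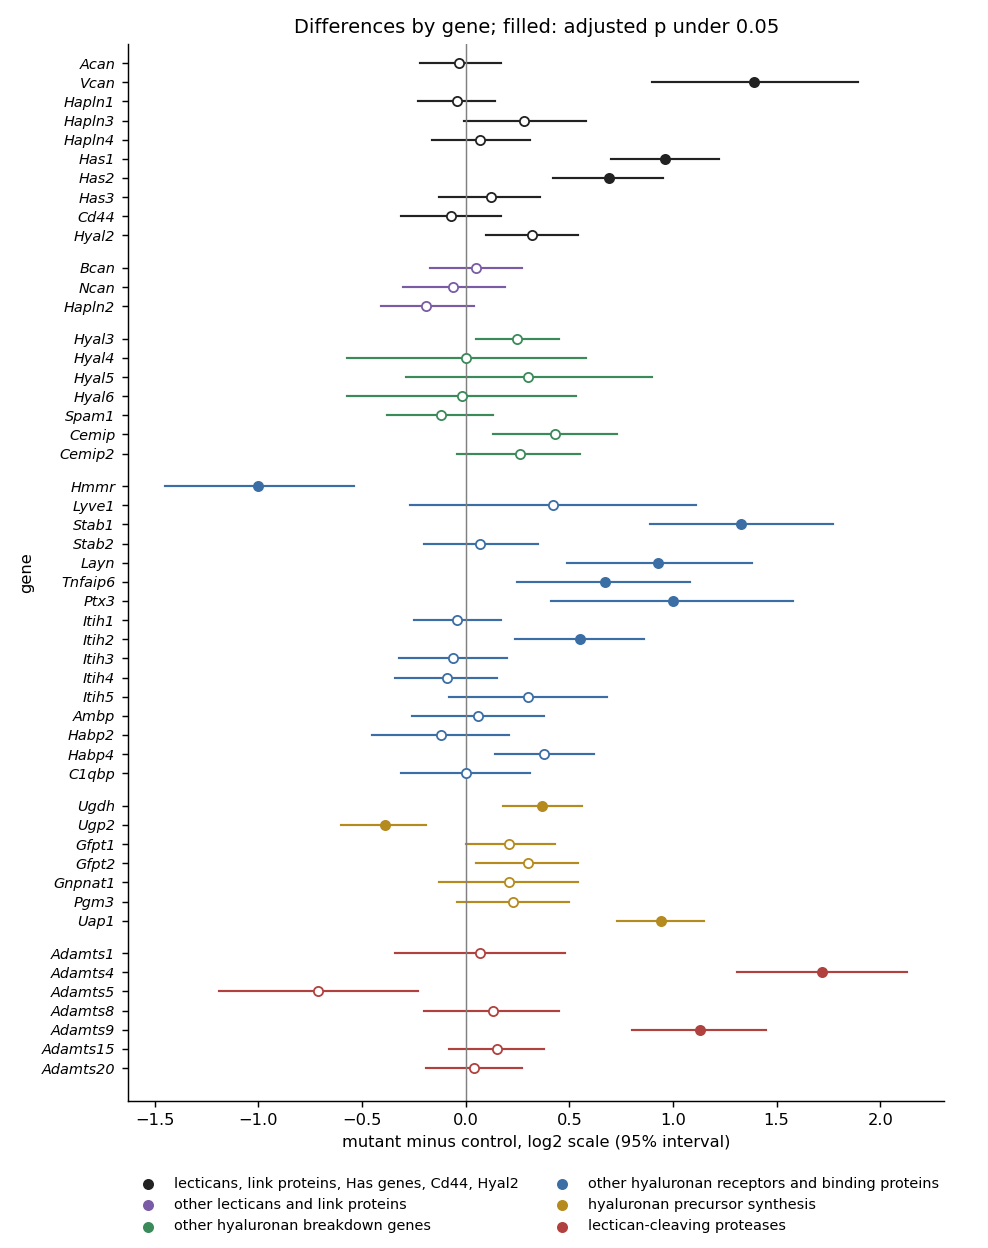
Difference of mutant minus control on the log2 scale for the 10 genes (black) and for 40 other genes of lectican and hyaluronan handling, with 95% intervals from limma; filled points passed an adjusted p of 0.05 and open points did not. Vcan, Has1, Has2, Stab1, Uap1, Adamts4 and Adamts9 lie to the right, Hmmr and Ugp2 to the left, and Acan, Hapln1 and Cd44 at 0.

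The wider set of 41 genes that make, bind or cut hyaluronan and lecticans went partly the same way. Of these, 40 had a probe set of 1 gene, Hyal1 being the exception, and 37 were tested. In the mutants 9 rose and 2 fell, beside 7.84% higher and 6.82% lower among all genes tested. Their median difference was 0.21, beside 0.03 over all genes tested. The groups did not overlap for 20 of the 37, beside 36.7% of all genes tested.

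Synthesis of the 2 sugar nucleotides is covered by 7 genes, of which 2 rose and 1 fell, beside 7.84% and 6.82% of all genes tested. Uap1, which makes UDP-N-acetylglucosamine in the last step of the hexosamine pathway, was at 10.20, 10.29 and 10.09 in the controls and at 11.13, 11.10 and 11.17 in the mutants. The groups were far apart relative to their spread. Uap1 rose 1.92-fold (difference 0.94, SE 0.09, limma adjusted p = 0.00113). The difference stayed between 0.89 and 0.99 with any 1 array left out and was 0.94 with only control replicate 1 kept, and once the marrow mean entered as a covariate it was 0.67 (adjusted p = 0.269).

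Ugdh, which turns UDP-glucose into the glucuronic acid donor, was at 11.50, 11.49 and 11.37 in the controls and at 11.83, 11.81 and 11.83 in the mutants. It rose by 0.37 (SE 0.08, adjusted p = 0.0257). Ugp2, which makes UDP-glucose one step before, went the other way, from 8.97, 9.08 and 8.90 to 8.57, 8.65 and 8.55, and fell by 0.39 on the log2 scale (SE 0.09, adjusted p = 0.0264). Neither call survived the removal of control replicate 2 or of any mutant array, where adjusted p reached 0.111 for Ugdh and 0.121 for Ugp2. That of Ugdh also ended with the arrays centred on their medians (adjusted p = 0.0535), and with the marrow covariate its difference was 0.092 (adjusted p = 0.879). The other 4, Gfpt1, Gfpt2, Gnpnat1 and Pgm3, earlier enzymes of the hexosamine pathway, differed by 0.21, 0.30, 0.21 and 0.23 and did not pass. UDP-sugars also feed other glycans, including the chondroitin sulphate chains of aggrecan.

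Of 16 other hyaluronan receptors and binding proteins, 5 rose and 1 fell, beside the same 7.84% and 6.82% over all genes. Stab1, a scavenger receptor of macrophages and sinus endothelium, was at 6.54, 5.95 and 6.22 in the controls, 1 of them above the background point, and at 7.88, 7.44 and 7.36 in the mutants. It rose by 1.33 (SE 0.19, adjusted p = 0.00461), a size limited by the background, and the difference was 0.78 with the marrow covariate (adjusted p = 0.554). Macrophage markers were higher on the same arrays: 7 of 8 rose, and their mean was 7.43 to 7.66 in the controls and 8.12 to 8.55 in the mutants. Mutant replicate 1 was the highest array for both Stab1 and the macrophage mean. The part of these cells in the Stab1 result was not tested.

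Layn, which encodes the hyaluronan-binding membrane protein layilin, rose by 0.93 (SE 0.19, adjusted p = 0.0181), Tnfaip6, whose product TSG-6 moves heavy chains onto hyaluronan, by 0.67 (SE 0.18, adjusted p = 0.0473) and Itih2, one of those heavy chains, by 0.55 (SE 0.13, adjusted p = 0.0329). Ptx3, a pentraxin that joins heavy chain-loaded hyaluronan into a network, was above the background point in 1 control and in all mutants and rose by 1.00 (SE 0.25, adjusted p = 0.0380), a size limited by the background. Against control replicate 1 alone, the control above the background point, its difference was 0.45, and that of Layn against the same control was 0.56. None of these 4 calls held with each array left out: Layn ended without control replicate 2 and mutant replicates 1 and 3, Tnfaip6 without each mutant, and Itih2 and Ptx3 without control replicate 2 and each mutant. The highest adjusted p was 0.0734 for Layn, 0.146 for Tnfaip6, 0.114 for Itih2 and 0.136 for Ptx3. That of Tnfaip6 was also 0.0534 with quantile normalisation, 0.0581 with median centring and 0.0567 with no filter. With the marrow mean as a covariate all 4 turned negative, to -0.70, -0.53, -0.26 and -1.46.

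Hmmr, a hyaluronan-binding protein of the mitotic spindle, was at 6.84, 7.09 and 7.66 in the controls and at 6.21, 6.13 and 6.25 in the mutants, where no array exceeded the background point. It fell (adjusted p = 0.0155). With the mutant mean raised to the background point, the group means still differed 1.54-fold, a value with no allowance for the spread between arrays. The order of Hmmr among the controls was that of the marrow mean. The call ended without each of the mutants (adjusted p of up to 0.0627), and its difference turned to 0.70 with the marrow covariate and was -0.64 when only control replicate 1 was kept. Lyve1, the hyaluronan receptor of lymphatic endothelium and some macrophages, differed by 0.42 with overlapping groups (adjusted p = 0.401).

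Of 7 other genes for hyaluronan breakdown, 4 were tested and 0 passed the limma threshold, beside 14.7% of all genes tested in either direction. Hyal3 and Cemip were under an unadjusted limma p of 0.05, as were at least the 14.7% of all genes that were called. The full share was not counted, so no result is read from this. Cemip, a hyaluronan-binding protein needed for hyaluronan breakdown in fibroblasts, was between 8.58 and 8.79 in the controls and between 8.90 and 9.34 in the mutants, a difference of 0.43 (adjusted p = 0.0667). Hyal3, which lies in the same gene cluster as Hyal2, differed by 0.25 (adjusted p = 0.0948). Hyal5, Hyal6 and Spam1, hyaluronidases of the testis, exceeded the background point on no array.

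Of 7 proteases that cleave lecticans, 2 rose and 0 fell, where 7.84% of all genes tested rose and 6.82% fell. Adamts4, an aggrecanase, was at 7.04, 6.68 and 6.45 in the controls, 2 of them above the background point, and at 8.18, 8.62 and 8.53 in the mutants. It rose by 1.72 (SE 0.18, adjusted p = 0.00136). Adamts9, which cleaves versican and aggrecan, was at 7.45, 7.28 and 7.44 in the controls and at 8.24, 8.57 and 8.75 in the mutants, and rose by 1.13 (SE 0.14, adjusted p = 0.00267). These are values of the brightest of its 6 probe sets, and the mean of its probe sets gave a difference of 1.0 (limma adjusted p = 0.002). Both calls held with each array left out. With the marrow mean as a covariate their differences were 0.43 and 0.96 and neither was called. Adamts5, the other main aggrecanase of mouse cartilage, was lower in every mutant than in any control, at 8.11, 7.54 and 7.44 against 6.85, 6.81 and 7.30, but a difference of -0.71 missed the threshold (adjusted p = 0.0604). Adamts1, another versican-cleaving protease, differed by 0.07 (adjusted p = 0.836).

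**Figure D3:**
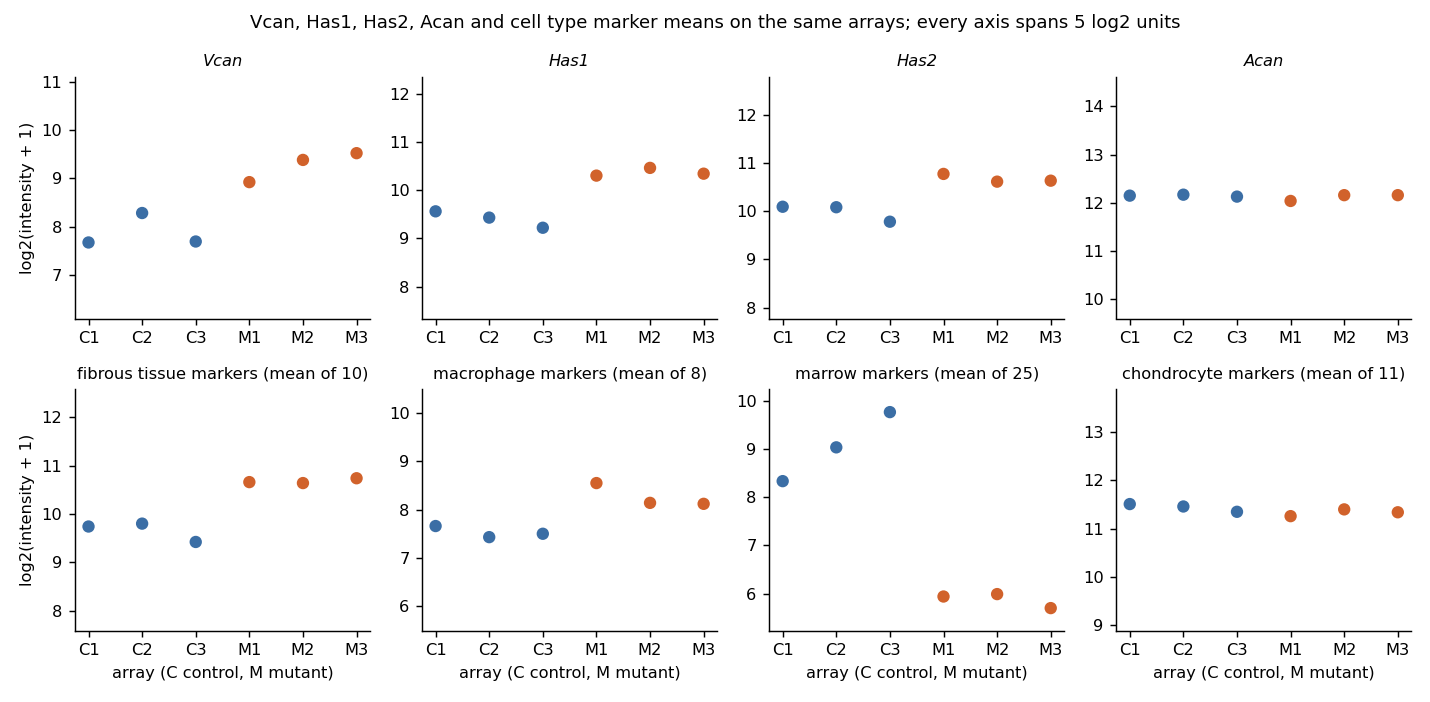
Level of Vcan, Has1, Has2 and Acan (top) and the mean level of cell type marker lists (bottom) on each array, as log2(intensity + 1), with controls in blue and mutants in orange and every axis spanning the same range. Vcan, Has1 and Has2 are higher in the mutants, as are the fibrous tissue and macrophage means; the marrow mean is lower there and uneven among controls; Acan and the chondrocyte mean overlap between the groups.

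The rises of Vcan, Has1 and Has2 came together with higher markers of other mesenchymal and vascular cells. Of 10 fibrous tissue and tendon markers 7 rose and 0 fell, where 7.84% of all genes tested rose and 6.82% fell. All 10 exceeded the background point in every mutant and 8 in every control. Of the 17020 genes tested, 10149 exceeded it in every mutant and 10189 in every control. Their mean was 9.74, 9.80 and 9.42 in the controls and 10.66, 10.64 and 10.74 in the mutants. Control replicate 3 was lowest for the fibrous mean, Has1 and Has2, while Vcan was nearly equal in control replicates 1 and 3 (7.67 and 7.69). Has1 was highest in mutant replicate 2, whose fibrous mean (10.64) was close to that of mutant replicate 1 (10.66). Orders of 3 arrays with such small gaps do not show which cells the RNA came from. Of 8 endothelial markers 6 rose, with a mean of 6.59 to 6.72 in the controls and 7.25 to 7.47 in the mutants. The part of these cells in the 3 rises was not tested. Of 11 chondrocyte markers none passed the test, 0 higher and 0 lower, and their mean was 11.35 to 11.51 in the controls and 11.26 to 11.40 in the mutants. None of the 5 osteoblast markers measured passed it.

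Over the 6 arrays, the genes whose levels were most like those of Vcan were Nudt6 (Pearson r = 0.995), Clstn3 (0.995) and Epas1 (0.994), among all genes tested, and Clstn3 was below the background point in all 3 controls. For Acan they were Amer3 (0.996), Faah (0.994) and the microRNA gene Mir29a (0.990), all lowest in mutant replicate 1. Faah lay below the background point on every array, and Amer3 and Mir29a lay below it on some. These coefficients describe 6 arrays in 2 groups, and are the highest of those over 17020 genes.

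**Figure D4:**
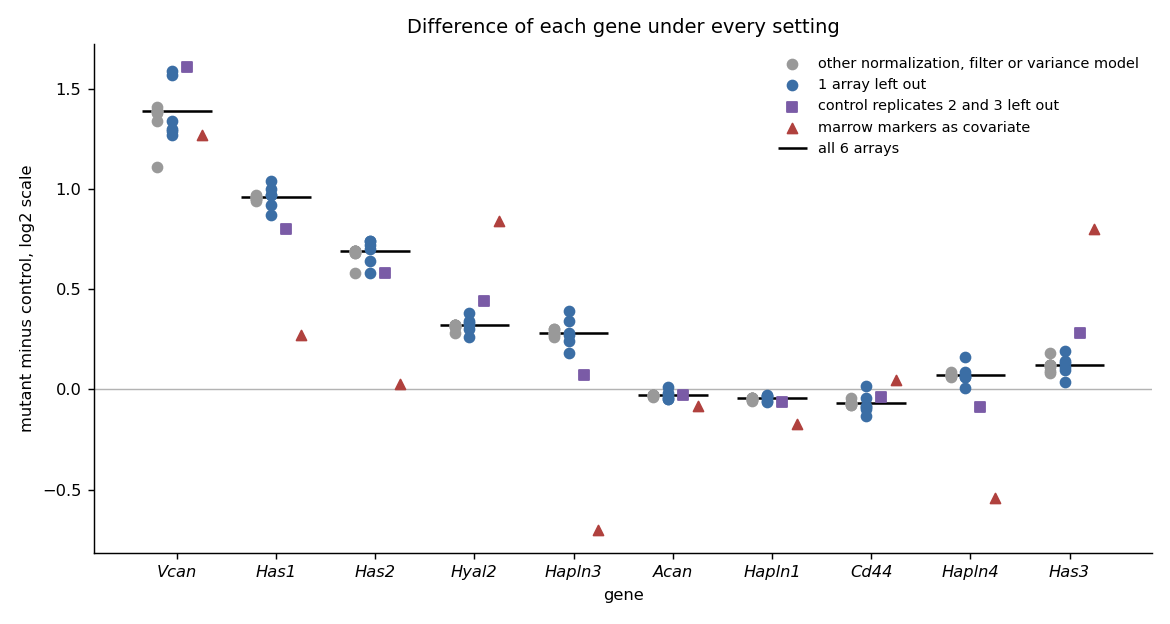
Difference of mutant minus control on the log2 scale for each of the 10 genes with all 6 arrays (black line) and under every other setting tried: other normalisations, filters and variance models (grey), 1 array left out (blue), control replicates 2 and 3 left out (purple squares) and the marrow marker mean as a covariate (red triangles). Vcan stays above 1.1 throughout, Has1 and Has2 fall to 0.27 and 0.027 with the covariate, and Acan, Hapln1 and Cd44 stay near 0.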

How the data were processed

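Total RNA of 6 samples was hybridised to single-channel Affymetrix arrays, per the labels. The authors deposited 1 intensity per probe set and array on a linear scale, in a table of 35512 probe sets; how they were background-corrected, summarised and normalised is not stated in the labels and stays unknown. Gene names come from the platform's annotation, with symbols brought to RefSeq GRCm38.p6 by gene number: 21789 probe sets had 1 gene, 1621 several and 12102 were not listed. Promoter sequences are from RefSeq. All 6 value columns matched a sample and 0 were left out.

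Intensities were taken as log2(intensity + 1) with no further normalisation. Probe sets below the 25% point of all means (5.56) were left out, and the brightest probe set of a gene was kept. The groups entered a two-sided limma fit (version 3.58.1, R 4.3.3, lmFit and eBayes). P-values were adjusted by Benjamini-Hochberg over 17020 genes, genes under 0.05 were called, and every adjusted p comes from that fit unless a setting is named. Tested on simulated data drawn from each gene's mean and spread, genes independent and 200 changed per run, the fit called 29.0% of changes of 0.5, 79.1% of changes of 1 and 28 of 84100 genes left alone. In the measured data it called 2496 genes. The Benjamini-Hochberg cutoff depends on how many genes change, so the simulated rates do not give the power of the real fit. The genes, the lists and the alternatives were chosen with earlier results of these data known. Named were all 10 genes, Stk11, Bcan, Ncan, Hapln2, the called genes of each list with the largest change (up to 4; Tnfaip6 and Itih2 are further called genes), and the 3 genes most like Acan and Vcan; other list genes named were chosen after their values were seen.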

Additional observations from a re-analysis of the deposited data

How the results depend on the processing

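Vcan, Has1 and Has2 kept their direction under every alternative run and their call under all that have a test except the marrow covariate. Without 1 array at a time, the differences lay between -0.049 and 0.011 for Acan, -0.13 and 0.015 for Cd44 and 0.26 and 0.38 for Hyal2. Without control replicates 2 and 3 they were 0.07 for Hapln3, -0.087 for Hapln4, 0.80 for Has1, 0.28 for Has3, 0.44 for Hyal2 and 0.12 for Ncan. With the marrow mean as a covariate they were 1.27 for Vcan, 0.27 for Has1, 0.027 for Has2, -0.70 for Hapln3, -0.54 for Hapln4, 0.049 for Cd44, 0.84 for Hyal2, 0.80 for Has3, -0.70 for Layn, -0.53 for Tnfaip6, -0.26 for Itih2, -1.46 for Ptx3, 0.70 for Hmmr, 0.45 for Ncan and 0.27 for Hapln2; 0 of the 10 genes, 0 of the wider set and 4 of all genes were called, and the median of all genes moved from 0.03 to 0.17. Hyal2 was called with a filter at the median (0.32). Array weights, a fit that stopped before convergence, called 8006 of all genes, 5 of the 10, with Hapln3 (0.30) and Hyal2 (0.32) added, and 20 of the wider set. Leaving out 1 array gave 936 to 3282 calls among all genes and 4 to 12 in the wider set, against 2496 and 11. It gave -0.01 to 0.11 for Bcan and -0.14 to 0.0033 for Ncan. The cause of these changes was not tested.

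The labels do not say that a replicate number is shared between the groups. Same-numbered arrays correlated at 0.080, 0.213 and -0.083 in their deviations from the group means, and other pairs between -0.177 and 0.106. With 3 arrays per group these values cannot decide whether the numbers pair the samples. With the number as a replicate block 2031 genes were called, and Vcan, Has1 and Has2 stayed called (1.39, 0.96 and 0.69), while Ugdh (adjusted p = 0.0625), Ptx3 (0.0507) and Tnfaip6 (0.0565) did not. In the simulated data most changes of 0.5 were missed, a share that can differ in the measured data. Genes at the background point have no reliable size.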
